A study of Mus musculus with 68 samples.

Results

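Tumours with a high and a low interferon response were compared by ranking them on an interferon score. The score of an array was the mean log2 value of Oasl2, Ifit3 and Usp18, each taken from its probe set with the highest mean. The 18 arrays with the highest and the 18 with the lowest score were taken from 56 arrays whose 18S ribosomal RNA control probe sets averaged below 8, and 20 arrays lay between the groups. The series holds 68 arrays under 66 animal numbers, and the 56 arrays carry 56 different numbers. The high and low arrays were thus chosen by the measured values of 3 interferon-induced genes. Each array measured total RNA of 1 spontaneous mammary tumour. All animals carried the MMTV-PyMT transgene, in which a mammary tumour virus promoter drives the polyoma middle T oncogene in mammary epithelium. They were offspring of (NZB x PyMT) hybrids crossed back to FVB, so the high and the low group share transgene, cross and tissue and received no treatment. Normal mammary gland and tumours with a manipulated interferon pathway were not analysed here, so a high or a low score is relative to the other tumours.

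Interferons are secreted proteins that cells release on sensing foreign or misplaced nucleic acid. Type I and type III interferons signal through Jak1 and Tyk2 to a complex that includes Stat2 and Irf9 and binds the interferon-stimulated response element in the promoters of antiviral genes. Interferon gamma signals through Jak1 and Jak2 to factors that bind the gamma-activated sequence and raise immunity-related GTPases and the genes of antigen presentation. The score genes are all induced by this system: Oasl2 is a relative of the oligoadenylate synthetases, Ifit3 belongs to a family of proteins that bind foreign RNA, and Usp18 removes the ubiquitin-like modifier Isg15 and damps receptor signalling.

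Because these values chose the groups, they are given as a description only. The score ran from 9.15 to 10.39 with a median of 9.70 in the high group and from 6.90 to 8.22 with a median of 7.69 in the low group. The means, 9.70 ± 0.35 and 7.63 ± 0.42 (SD, n = 18 each), lay 2.07 log2 units apart. The score formed a slope rather than clusters, and both limits fell between near neighbours. The lowest high array stood at 9.1478 and the next array below it at 9.144, and the highest low array at 8.2236 against 8.2301 for the next array above it. Oasl2 ran from 9.61 to 10.78 (median 10.0001) in high and from 7.40 to 8.90 (7.91) in low tumours. Ifit3 lay between 8.32 and 10.19 (9.44) against 6.41 and 7.80 (7.35), and Usp18 between 9.04 and 10.20 (9.62) against 6.85 and 8.60 (7.60).

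**Figure D1:**
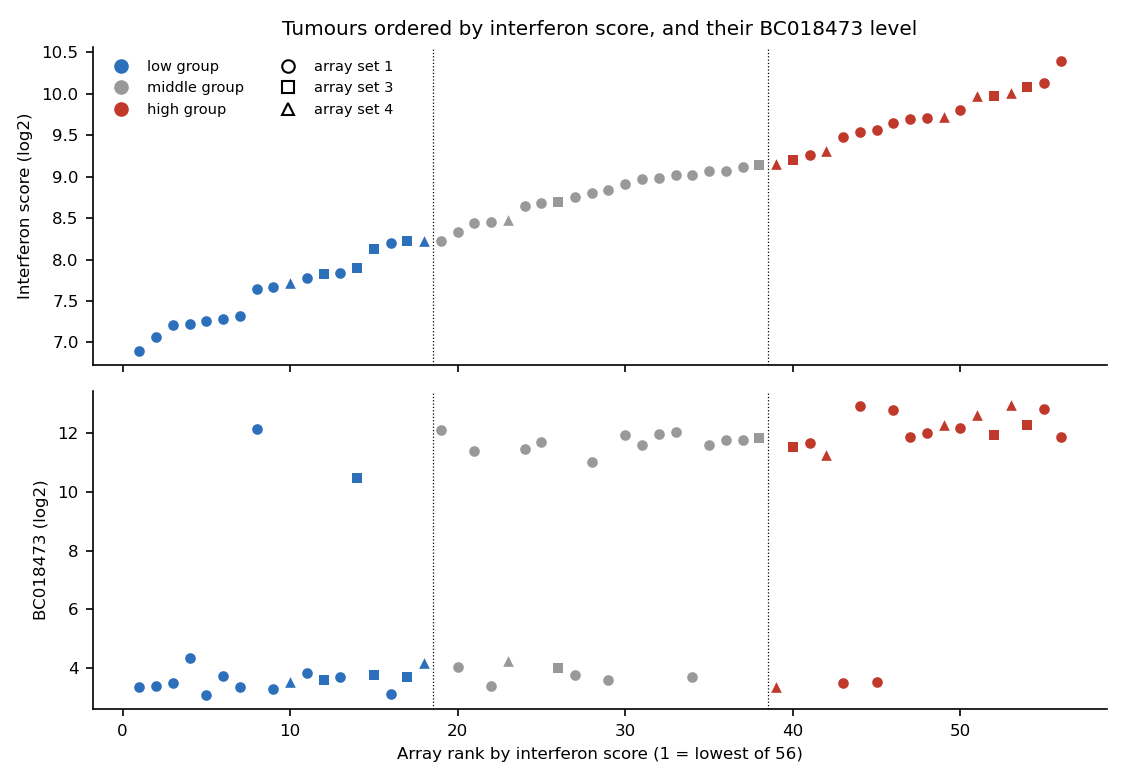
Interferon score (upper panel, log2) and BC018473 level (lower panel, log2) of the 56 arrays in order of the score, coloured by group and shaped by array set. The score climbs from 6.90 to 10.39 without a gap at the limits (dotted lines), while BC018473 lies at an upper level in 15 of 18 high and 2 of 18 low tumours.

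The 56 arrays fell into 3 technical sets that the labels do not name, found from probe sets that divide the arrays in exactly the same way. Array set 3 holds every kept array with a title ending in R and array 4967. Array set 4 holds only animal numbers from 4950 to 5000. Leaving out arrays marked R, or keeping animal numbers below 4000, thus also changes the array sets. What the R means is not given. High tumours numbered 10, 3 and 5 in array sets 1, 3 and 4, and low tumours 12, 4 and 2, so each test holds array set as a term. Array set 2 holds the 12 arrays above the 18S limit, the lowest of them at 8.97 against 6.84 for the highest array kept. The mean Gapdh 3' minus 5' difference, a measure of RNA integrity, was 0.0336 ± 0.128 in high and -0.0648 ± 0.126 in low tumours, and that of Actb 0.880 ± 0.223 and 0.881 ± 0.238 (log2, SD, n = 18 each). The epithelial keratins Krt8 and Krt18 and the adhesion molecule Epcam stood between 11.12 and 12.94 in every array of both groups, as in an epithelial tumour. In bulk tumour RNA, fewer cells of a type and less RNA per cell cannot be told apart.

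Most of the genes with the largest differences were known interferon-induced genes, and differences reached much further upward than downward. Of 12559 genes tested, 156 (1.24%) were higher and 55 (0.438%) lower in high tumours (limma, array set as a term, Benjamini-Hochberg adjusted p below 0.05). The median difference of the 156 was 0.64 log2, against -0.01 over all genes tested, and 41 of them exceeded 1 log2, 31 of which belong to the lists of the interferon system. The 55 lower genes had a median of -0.22 and reached at most -0.55. In 24 genes (0.191%) the groups did not overlap at all, each of them higher in high tumours. Of the 156 higher genes, 152 had a difference above 0 in each of array sets 1, 3 and 4. The lists that describe the interferon system held 114 tested genes, of which 71 were higher, 1 was lower and 42 passed in neither direction. As the groups were chosen with interferon genes, these counts describe how closely the other genes followed the score.

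**Figure D2:**
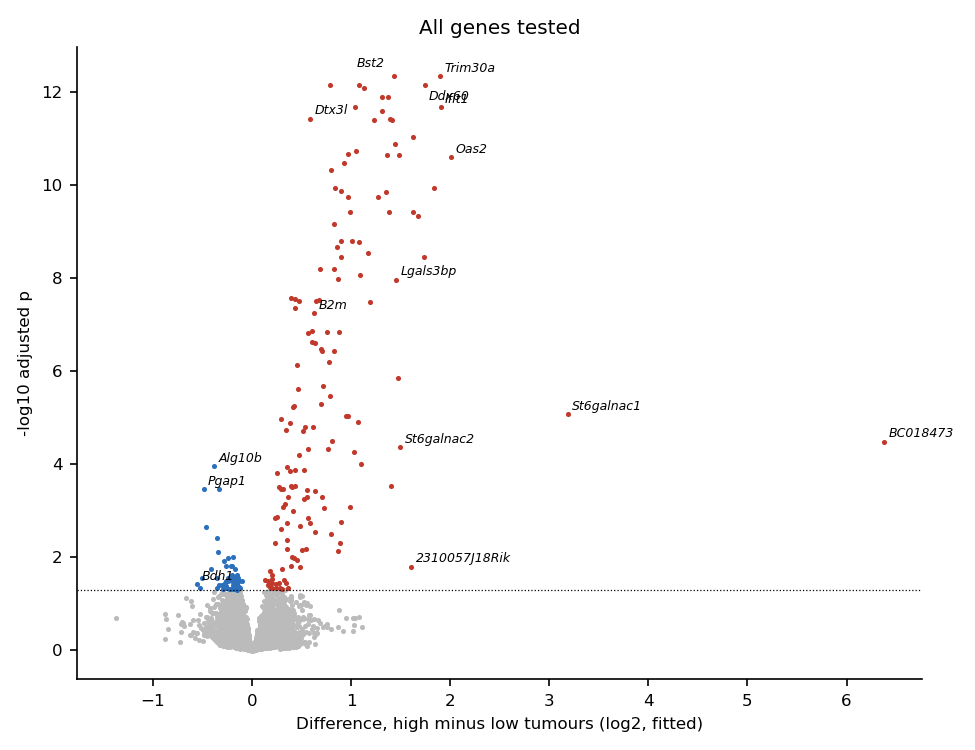
Fitted difference between high and low tumours (log2, horizontal) against -log10 of the adjusted p (vertical) for 12559 genes, red where higher and blue where lower, with the 0.05 threshold dotted. The red arm reaches 6.38 at BC018473 and the blue arm only -0.55 at Bdh1.

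The antiviral effectors, proteins that block entry, replication or release of viruses, were raised almost without exception. Of 31 members tested, 30 were higher and none lower, with a median difference of 1.13 log2, and in 13 the groups did not overlap. Oas2, which makes the 2-5A messenger from double-stranded RNA, ran from 8.43 to 10.47 (median 9.77) in high and from 7.01 to 8.72 (7.68) in low tumours. It differed by 2.01 ± 0.16 log2 (SE), 4.02-fold (adjusted p = 2.54e-11), and 17 of 18 high tumours exceeded every low tumour. Ifit1, which holds back translation of viral RNA, lay between 8.56 and 10.32 (9.72) in high and between 6.997 and 8.65 (7.80) in low tumours. Its difference was 1.91 ± 0.14, 3.75-fold (adjusted p = 2.10e-12), again with 17 of 18 high tumours above all low ones. Trim30a, a member of the tripartite motif family, stood at 7.13 to 8.58 (8.02) against 5.41 to 6.64 (6.04). All 18 high tumours exceeded all low ones for Trim30a, a difference of 1.90 ± 0.13 or 3.73-fold (adjusted p = 4.47e-13).

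Other effectors kept the same order at smaller sizes. Rsad2 (viperin, which makes a chain-terminating nucleotide) was 1.62 ± 0.15 log2 higher and its neighbour in the genome Cmpk2 1.38 ± 0.13. The dynamin-like GTPases Mx1 and Mx2, which trap viral particles, differed by 1.44 ± 0.11 and 1.13 ± 0.08 with no overlap between groups. Bst2 (tetherin), which holds budding virions at the membrane, ran from 8.56 to 9.36 in high and from 6.80 to 8.19 in low tumours, 2.70-fold apart (adjusted p = 4.47e-13). Among the oligoadenylate synthetases, Oas1a differed by 1.48, Oasl1 by 1.37, Oas3 by 1.17 and Oas1b by 0.83. Parp9 and Parp14, of the ADP-ribosyltransferase family, and Dtx3l, the partner of Parp9, differed by 0.79, 1.08 and 0.58, all without overlap. The kinase Eif2ak2 (PKR), which stops translation on sensing double-stranded RNA, was 0.71 ± 0.10 higher. At the lower end stood Slfn5 (0.63 ± 0.13), Sp100 (0.56 ± 0.10) and the exonuclease Isg20 (0.36 ± 0.08). Ifitm1 was the member that did not pass, at 0.22 ± 0.11 (adjusted p = 0.296), while its relative Ifitm3 differed by 0.83 ± 0.07. Members of the Oas, Ifit, Slfn and Trim families resemble each other in sequence, so probes may read more than 1 of them, and Isg15, Ifi44 and 3 other members of the list were not used here.

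Promoters of 7 genes are shown because the interferon-stimulated response element is the known control sequence of antiviral genes. The genes are Ifit3, a score gene that was not tested, and the most raised genes with a match to a core of that element. Each run is the 250 bases before the RefSeq start (GRCm38.p6), 5′ to 3′ along the gene's strand. Capitals mark matches to a core of that element, GAAANNGAA, which reads TTCNNTTTC on the other strand. They lie at chr19:34583279-34583528 (Ifit3, plus strand), chr19:34640639-34640888 (Ifit1, plus), chr7:104465194-104465443 (Trim30a, minus, the first of 2 listed promoters), chr8:61927837-61928086 (Ddx60, plus), chr3:142559794-142560043 (Gbp3, plus, the first of 2), chr12:26456453-26456702 (Rsad2, minus) and chr5:120907526-120907775 (Oas1a, minus).
Ifit3: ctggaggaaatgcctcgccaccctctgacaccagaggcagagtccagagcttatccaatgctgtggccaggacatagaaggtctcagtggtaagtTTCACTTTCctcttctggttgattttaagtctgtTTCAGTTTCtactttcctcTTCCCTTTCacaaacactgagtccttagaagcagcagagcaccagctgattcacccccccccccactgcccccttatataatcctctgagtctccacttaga
Ifit1: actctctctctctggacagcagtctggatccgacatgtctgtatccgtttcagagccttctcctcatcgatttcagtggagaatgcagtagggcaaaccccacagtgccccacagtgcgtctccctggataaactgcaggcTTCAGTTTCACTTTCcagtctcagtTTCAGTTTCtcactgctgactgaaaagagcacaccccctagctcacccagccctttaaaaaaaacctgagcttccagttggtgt
Trim30a: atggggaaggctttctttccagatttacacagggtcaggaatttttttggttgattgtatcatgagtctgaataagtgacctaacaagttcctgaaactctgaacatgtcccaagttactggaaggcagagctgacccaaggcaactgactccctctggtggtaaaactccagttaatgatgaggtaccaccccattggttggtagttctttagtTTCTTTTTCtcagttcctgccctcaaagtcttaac
Ddx60: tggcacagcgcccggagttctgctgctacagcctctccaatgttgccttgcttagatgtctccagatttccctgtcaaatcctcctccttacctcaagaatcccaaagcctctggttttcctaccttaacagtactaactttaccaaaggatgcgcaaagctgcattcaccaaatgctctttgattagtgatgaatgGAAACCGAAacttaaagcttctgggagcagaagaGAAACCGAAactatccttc
Gbp3: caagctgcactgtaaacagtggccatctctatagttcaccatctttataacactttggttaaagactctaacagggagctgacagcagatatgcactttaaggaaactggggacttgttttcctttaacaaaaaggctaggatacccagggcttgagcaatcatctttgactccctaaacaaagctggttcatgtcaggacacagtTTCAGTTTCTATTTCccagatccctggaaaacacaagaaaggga
Rsad2: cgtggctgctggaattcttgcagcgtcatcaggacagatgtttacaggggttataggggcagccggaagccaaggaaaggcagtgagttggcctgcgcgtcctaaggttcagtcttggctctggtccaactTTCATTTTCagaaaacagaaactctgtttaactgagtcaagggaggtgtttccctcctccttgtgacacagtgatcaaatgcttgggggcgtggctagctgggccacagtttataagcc
Oas1a: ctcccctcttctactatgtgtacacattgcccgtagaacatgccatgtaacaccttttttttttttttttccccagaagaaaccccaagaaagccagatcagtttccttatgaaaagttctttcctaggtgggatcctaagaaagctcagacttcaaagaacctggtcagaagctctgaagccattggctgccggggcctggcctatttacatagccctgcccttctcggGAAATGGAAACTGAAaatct

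Ifit3 and Ifit1 each hold 3 matches, Ddx60, Gbp3 and Oas1a 2, and Trim30a and Rsad2 1. These counts only describe promoters that were chosen for a match. In Ifit1, Gbp3 and Oas1a 2 matches share letters, so that the capitals form a run longer than 1 core. Over the 300 bases that the RefSeq table gives for each start (250 before and 50 after), the core occurred on either strand in 46 of 123 higher genes with a promoter in the table (37.4%). It occurred in 53.8% of those over 1 log2, in 5 of 49 lower genes (10.2%) and in 7.95% of 9921 genes that passed in neither direction. Over all 27025 genes with a promoter in the table the share was 9.76%. At least 2 matches were present in 15.4% of higher genes and 0.736% of all. By role, the core was found in 11 of 23 antiviral effectors, 6 of 7 GTPases, 3 of 13 MHC class I genes and none of 10 mitosis genes. A core of the gamma-activated sequence, TTCNNNGAA (the same on both strands), was present in 16.3% of higher genes and 9.55% of all. By role, this core was found in 7 of 23 antiviral effectors, 3 of 7 GTPases, 2 of 13 MHC class I genes and none of 10 mitosis genes. An NF-kB-like core, GGANTTTCC (GGAAANTCC on the other strand), was present in 3.25% of higher genes and 1.45% of all. The 3 cores were searched separately, and letters shared between matches of different cores were not removed. A match is a run of letters and not a measured binding site.

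Among the transcription factors and signalling proteins Irf7 differed most, and the receptor-bound kinases did not pass. Irf7, which drives interferon alpha genes, ran from 9.56 to 11.41 (median 10.26) in high and from 7.58 to 9.62 (8.43) in low tumours, and 17 of 18 high tumours lay above all low ones. It differed by 1.83 ± 0.16 log2, 3.57-fold (adjusted p = 1.14e-10). Stat2 (0.78 ± 0.11) and Irf9 (0.71 ± 0.09), which belong to the complex that binds the response element, Nmi (0.46 ± 0.06) and Irf1 (0.23 ± 0.05), the factor most tied to interferon gamma, were also higher. The other 10 of 15 tested, listed here with their differences, did not pass: the myeloid factors Irf8 (0.44, adjusted p = 0.0893) and Irf5 (0.23), Batf2 (0.17), the kinases Jak1 (0.16), Jak2 (0.06) and Tyk2 (0.05), the inhibitors Socs3 (0.10), Ptpn2 (0.07) and Pias1 (-0.02), and Irf3 (0.04). The median over the 15 was 0.17. Irf3, the factor that starts interferon beta transcription, ran from 8.97 to 9.76 in high and from 8.89 to 9.71 in low tumours, nearly the same span. Socs1 was too dim to test.

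None of the 7 tested interferons and receptors passed in either direction, against 1.68% of all genes tested, a share at which most lists this short would hold none. All 7 differences were above 0, as were 44.2% of those of all genes tested. By a slope over the 56 arrays, and with 28 arrays a side, 1 of the 7 was higher. Ifnar1, the first chain of the type I receptor, ran from 7.45 to 8.23 (median 7.79) in high and from 7.28 to 8.22 (7.80) in low tumours, a difference of 0.05 ± 0.06 (adjusted p = 0.738). Ifnar2, its partner, differed by 0.14 ± 0.05 (adjusted p = 0.124), Ifnlr1 of the type III receptor by 0.17 ± 0.06 (0.154), Ifngr1 by 0.11, Il10rb by 0.06 and Ifngr2 by 0.02. Of the interferons themselves, Ifna1 was the one bright enough to test, at 0.03 ± 0.06 (adjusted p = 0.835). The medians of Ifnb1 (4.11 in both groups), Ifna2 (4.12 and 4.06), Ifna4 (3.71 and 3.64), Ifna11 (3.65 and 3.61) and Ifng (2.60 and 2.62) lay below 5.42, the median of all values on the arrays. At that brightness a difference in the ligands would be hard to detect, and no order between the groups can be read from them.

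Sensors of RNA that are induced by interferon were higher, while Cgas with its effector Sting1, Tlr9 and the shared adaptors did not pass. Dhx58 (LGP2) ran from 7.58 to 9.13 (median 8.30) in high and from 6.36 to 7.95 (6.87) in low tumours, a difference of 1.31 ± 0.10 or 2.48-fold (adjusted p = 2.56e-12). The related helicases Ifih1 (MDA5) and Ddx58 (RIG-I) differed by 0.90 ± 0.09 and 0.79 ± 0.07, and Ddx58 did not overlap between groups. Zbp1, which binds Z-form nucleic acid and can start cell death, lay between 8.21 and 9.29 in high and between 6.99 and 7.92 in low tumours, 1.05 ± 0.08 apart (adjusted p = 1.86e-11). Trim25, which activates RIG-I, differed by 0.45 ± 0.06 and the endosomal receptor Tlr3 by 0.38 ± 0.06. Of the other 8 tested, Tlr7 came nearest at 0.25 ± 0.07 (adjusted p = 0.0630). The DNA sensor Cgas (-0.01 ± 0.05), its effector Sting1 (0.11 ± 0.05), the adaptors Mavs (0.03) and Myd88 (0.05), the kinases Tbk1 (0.00) and Ikbke (0.09), and Tlr9 (0.02) had differences of at most 0.11, and the DNA sensor Aim2 was too dim to test. For Cgas the 18 high tumours ran from 6.27 to 7.22 and the 18 low ones from 6.19 to 6.88.

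Among genes that edit or clear self nucleic acid, Adar, which edits double-stranded RNA and keeps it from MDA5, was 0.47 ± 0.05 higher (8.67 to 9.19 against 8.27 to 8.80, adjusted p = 3.11e-08). Samhd1, which breaks down nucleotides, was 0.35 ± 0.05 higher. The ribonuclease H2 subunits, which remove ribonucleotides from DNA, lay on the other side. Rnaseh2b was the 1 lower gene of the interferon lists, by -0.16 ± 0.04 (adjusted p = 0.0379), and ran from 7.81 to 8.29 in high and from 7.83 to 8.50 in low tumours, almost wholly overlapping. Its call was lost in 11 of the alternatives (adjusted p of 0.0555 to 0.525), among them no array set term, array set 1 alone and every covariate, and its slope over the arrays with high 18S was 0.0018. Rnaseh2a (-0.19 ± 0.05, adjusted p = 0.0626) and Rnaseh2c (-0.10 ± 0.05, 0.312) did not pass, nor did Pnpt1 (0.22, 0.0534) and Apobec3 (0.13, 0.750).

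Each of the 9 interferon-inducible GTPases tested was higher, with a median difference of 1.36 log2. These proteins coat the vacuoles of intracellular parasites and are classic targets of interferon gamma. Iigp1 ran from 9.35 to 11.00 (median 10.44) in high and from 7.49 to 10.20 (8.75) in low tumours, the widest low group of the family, and differed by 1.74 ± 0.18 (3.34-fold, adjusted p = 3.59e-09). Gbp3 lay between 8.46 and 9.57 (8.91) against 6.45 and 8.08 (7.30), with no overlap and a difference of 1.62 ± 0.13 (adjusted p = 9.36e-12). Igtp (1.41 ± 0.11), Irgm2 (1.38 ± 0.10) and Irgm1 (0.97 ± 0.09) did not overlap between groups either. Ifi47 (1.36), Gbp6 (1.27), Gbp2 (1.01) and Gbp7 (0.90) had between 16 and 17 of 18 high tumours above all low ones. Irgm2 followed the score over the 56 arrays with a Pearson r of 0.966, given as a description since both are read from the same arrays.

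**Figure D3:**
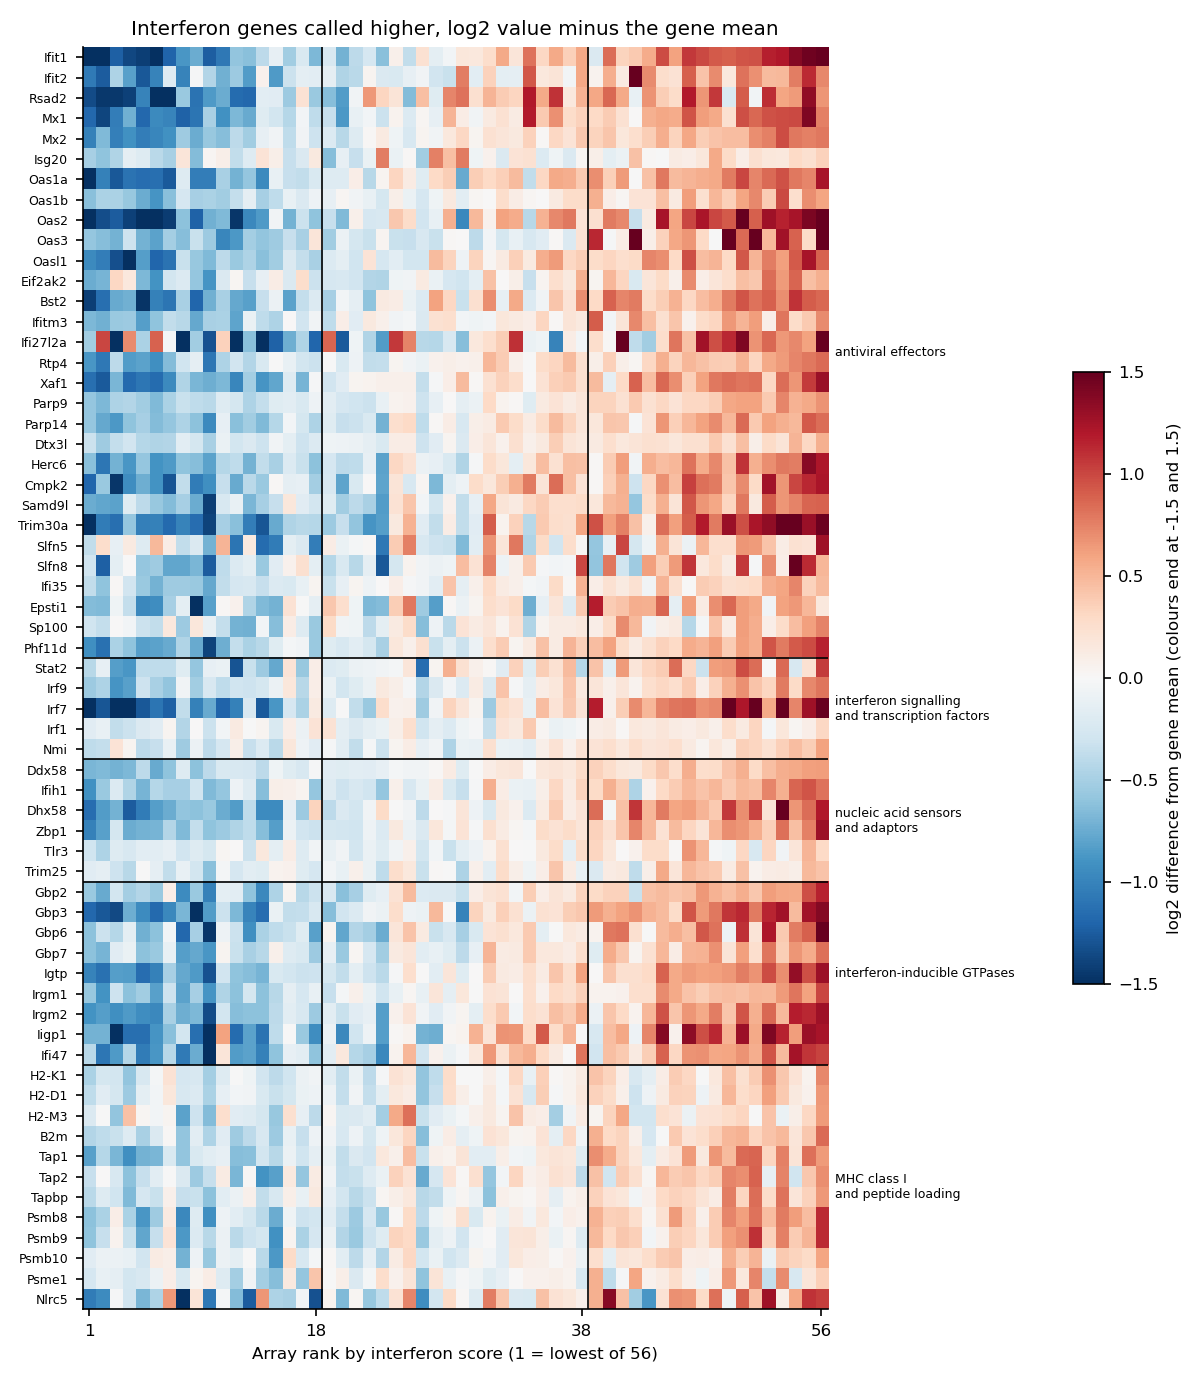
Log2 value minus the gene's mean (colour, ending at -1.5 and 1.5) of the higher genes of 5 interferon lists (vertical) in the 56 arrays in order of the score (horizontal), with lines after the 18 low and before the 18 high arrays. Most lines of the map turn from blue to red along the score, and Ifi27l2a, Slfn5, Isg20 and Nlrc5 are the most broken.

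Antigen presentation by MHC class I was higher by smaller steps. Of 16 genes tested, 12 were higher and none lower, with a median of 0.46 log2 and overlap between the groups in each. B2m, the light chain of all class I molecules, ran from 12.13 to 13.23 (median 12.73) in high and from 11.78 to 12.40 (12.04) in low tumours. It differed by 0.63 ± 0.07, 1.55-fold (adjusted p = 5.55e-08), and 16 of 18 high tumours exceeded every low tumour. Nlrc5, the transactivator of class I genes, differed by 1.10 ± 0.18 (5.19 to 7.43 against 4.40 to 6.72, adjusted p = 9.74e-05). The immunoproteasome subunits Psmb8 (0.88 ± 0.10), Psmb9 (0.78 ± 0.10) and Psmb10 (0.43 ± 0.08), which cut peptides for loading, were higher, as was the proteasome activator Psme1 (0.26 ± 0.04). The peptide transporters Tap1 (0.87 ± 0.09) and Tap2 (0.60 ± 0.07) and the loading factor Tapbp (0.54 ± 0.08) followed. Among the heavy chains H2-K1 differed by 0.48 ± 0.08, H2-D1 by 0.43 ± 0.07 and H2-M3 by 0.41 ± 0.09. The chaperones Calr (0.17) and Pdia3 (0.07), the trimming peptidase Erap1 (0.16) and Tapbpl (0.18) did not pass. Heavy chain sequences differ between mouse strains, and the effect of this on probe binding was not tested. H2-D1 has 8 other probe sets, 2 of which had a lower mean in high tumours (-0.18 and -0.03, with SDs of 2.56 to 3.44 within groups), and Tap1 has 3, of which 2 with means below 3 did so (-0.01 and -0.07). The call of H2-D1 was lost with the mean of its probe sets (0.38, adjusted p = 0.508) and with the probe set of largest SD (0.14, 0.963), as was that of Tapbp with the latter (0.61, 0.0877).

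Class II presentation, which marks professional antigen-presenting cells, did not pass in any of 6 genes. All 6 differences were above 0, with a median of 0.43, which compares with 44.2% of all genes tested. H2-Ab1 differed by 0.55 ± 0.17 (adjusted p = 0.0968), Cd74 by 0.55 ± 0.17 (0.108), H2-Aa by 0.52 ± 0.21 (0.195) and the protease Ctss by 0.33 ± 0.10 (0.0814). The low group was the wider one, H2-Ab1 running from 7.65 to 10.13 there and from 8.95 to 10.78 in high tumours.

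Of 11 chemokines and ligands, 5 were higher and none lower, with a median of 0.31. Cxcl9 (0.89 ± 0.19, adjusted p = 0.00495) and Cxcl10 (0.70 ± 0.10, adjusted p = 4.95e-06), interferon-induced attractants of T cells, differed most along with Ccl5 (0.73 ± 0.14). Cxcl10 ran from 5.69 to 6.91 (median 6.09) in high and from 4.997 to 6.08 (5.39) in low tumours, and 10 of 18 high tumours lay above all low ones. Cxcl9 overlapped more, at 4.75 to 7.16 against 4.31 to 6.87, with 1 high tumour above all low ones. The death ligand Tnfsf10 (TRAIL, 0.52 ± 0.08) and the monocyte attractant Ccl12 (0.48 ± 0.10) were higher too. Other monocyte attractants, Ccl2 (0.16), Ccl7 (0.15) and Ccl8 (0.21), as well as Cx3cl1 (0.31), Cxcl16 (0.18) and the cytokine Il15 (0.19), did not pass. The checkpoint ligands Cd274 (PD-L1, medians 5.04 and 4.86) and Pdcd1lg2 (3.28 and 3.37), Ido1 (4.28 and 4.30) and Cxcl11 (4.68 and 4.38) were too dim to test. In the Ifi200 family of nuclear DNA-binding proteins on chromosome 1, Ifi204 (1.07 ± 0.16) and Ifi209 (1.02 ± 0.16) were higher. Ifi202b differed by nearly as much but varied more, at 0.95 ± 0.38 (7.70 to 10.77 against 6.06 to 9.71, adjusted p = 0.202), and Ifi203 by 0.03.

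**Figure D4:**
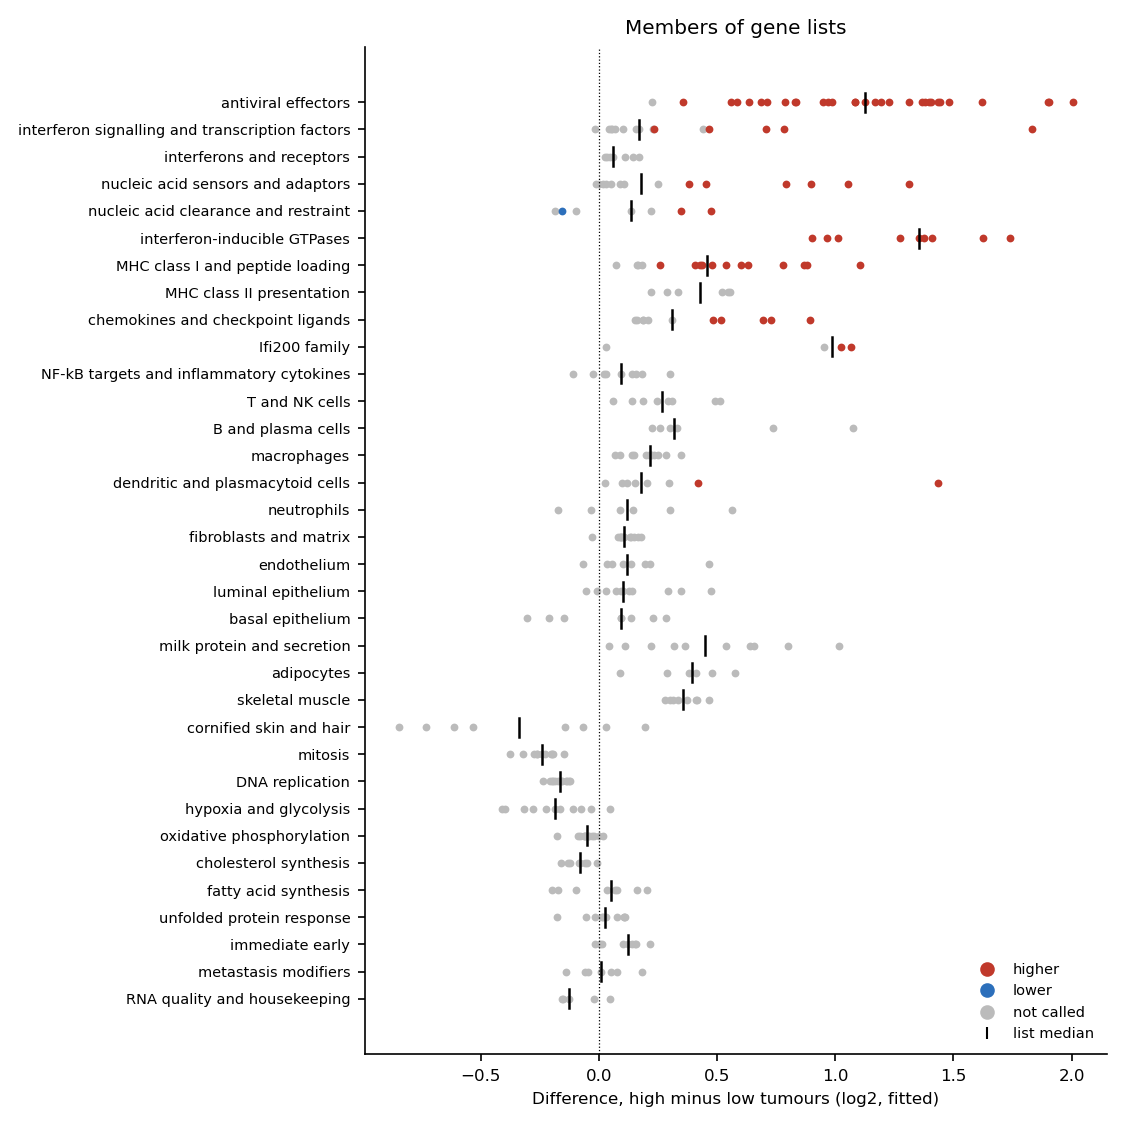
Fitted difference between high and low tumours (log2) of each tested member of 34 gene lists, red where higher, blue where lower and grey where neither passed, with the list median as a bar. The score genes and the strain-split list, which holds BC018473, are not drawn. Members of the antiviral and GTPase lists lie mostly above 0.5, while the mitosis and replication lists lie wholly below 0 with no member that passed. Of all genes tested 44.2% lie above 0 and 1.68% passed.

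Many higher genes, 82 of the 156, belonged to none of the lists. The 12 with the largest differences were Ddx60, Gm4951, 2310057J18Rik, St6galnac2, Ifit1bl1, Lgals3bp, Lgals9, Parp12, Cfb, Helz2, Gm9706 and Znfx1. Ddx60, a helicase that aids RIG-I-like sensing, ran from 7.75 to 9.02 (median 8.59) in high and from 5.99 to 7.74 (6.88) in low tumours, so the groups met without overlapping. It differed by 1.74 ± 0.12, 3.35-fold (adjusted p = 7.08e-13). Parp12 (1.04 ± 0.08) and Helz2 (0.97 ± 0.08) did not overlap either. The secreted glycoprotein Lgals3bp, which binds galectins, differed by 1.45 ± 0.15 (10.07 to 12.43 against 8.67 to 10.49), and the galectin Lgals9 by 1.09 ± 0.11. Cfb, complement factor B of the alternative pathway, was 0.98 ± 0.19 higher and Znfx1, a helicase that senses RNA, 0.90 ± 0.09. Ifit1bl1 (1.47 ± 0.19) is a near copy of Ifit1, and its probes may read Ifit1 as well. 2310057J18Rik differed by 1.61 ± 0.38 (adjusted p = 0.0159) but ran from 7.14 to 12.50 in low and from 9.10 to 12.77 in high tumours, with 1 high tumour above all low ones. Further down, and named after their values were seen, the enzymes of Isg15 conjugation Ube2l6 (0.82) and Uba7 (0.69) were higher, as were the RNA-binding protein Mov10 (0.41), the nuclear body genes Pml (0.43) and Daxx (0.34), the interleukin 18 inhibitor Il18bp (0.57) and the necroptosis effector Mlkl (0.29).

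**Figure D5:**
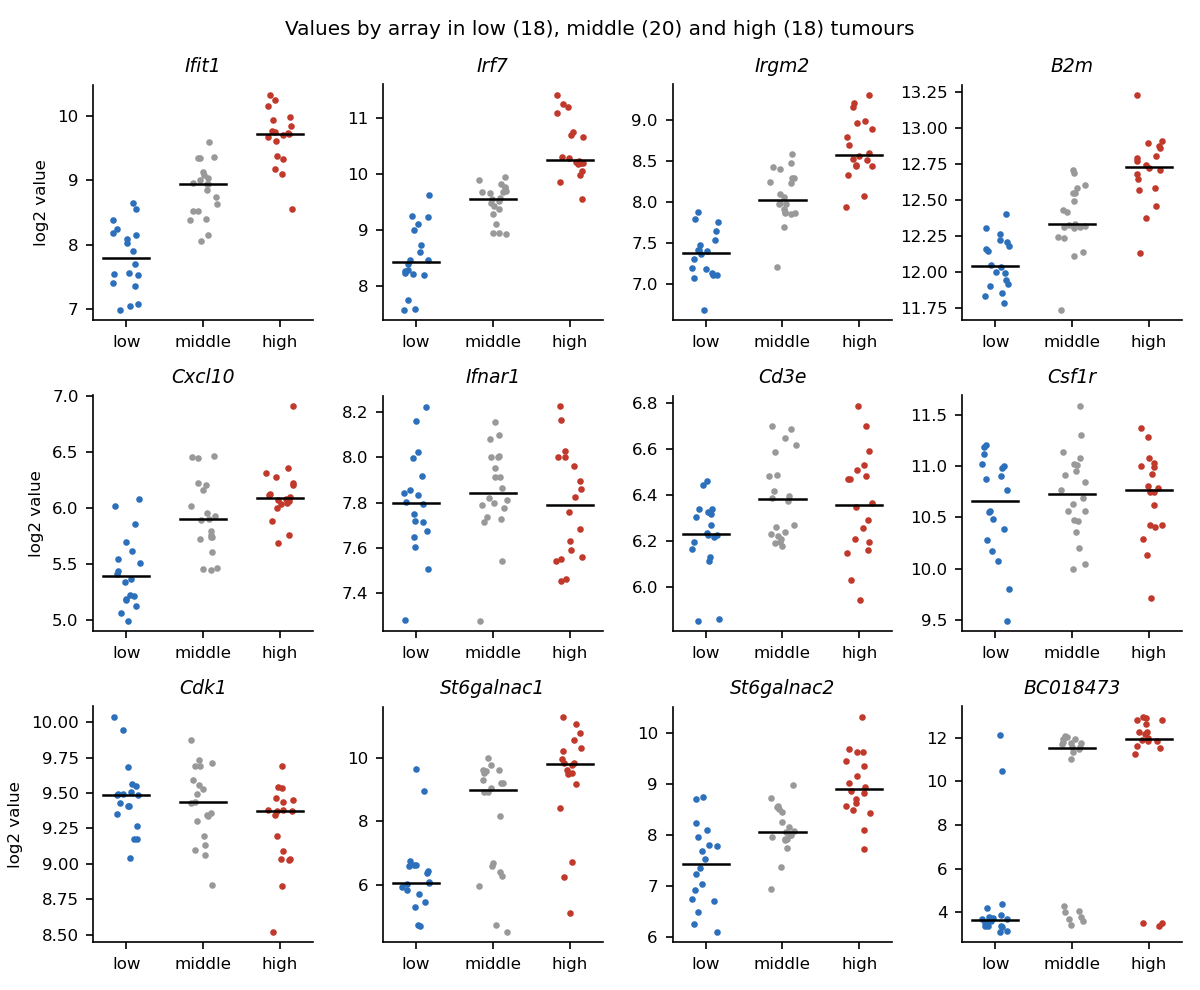
Log2 value of each array for 12 genes in the low (18 arrays), middle (20) and high (18) groups, with the group median as a bar. Ifit1, Irf7 and Irgm2 step up through the middle group, Ifnar1, Cd3e, Csf1r and Cdk1 overlap widely, and BC018473 and St6galnac1 fall into separate levels.

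Among markers of immune cells Bst2, which the antiviral list also holds, and Itgax were the members that passed. As 1.68% of all genes tested passed in either direction, most lists of this length would hold none, and 44.2% of all genes had a difference above 0. Of 8 T and NK cell genes none passed, with all 8 differences above 0 and a median of 0.27, and 5 further measured members were too dim to test. Klrd1, an NK receptor chain, differed by 0.49 ± 0.16 (adjusted p = 0.108), Cd3g of the T cell receptor complex by 0.51 ± 0.21 (0.211), the granule protein Nkg7 by 0.29 (0.0866) and granzyme Gzmb by 0.31 (0.263). The mean z-score of the list ran from -0.90 to 1.70 (median 0.05) in high and from -1.68 to 0.64 (-0.36) in low tumours. With that score as a covariate 119 genes were higher, 115 of them among the 156, and Cxcl9, Ccl5, Irf1, Ifi27l2a, Slfn5 and H2-M3 no longer passed. In B and plasma cells 0 of 6 passed (Jchain 1.07 ± 0.42, adjusted p = 0.192), with list scores from -0.76 to 2.19 in high and from -0.81 to 1.49 in low tumours. In macrophages 0 of 12 passed (C1qa 0.35 ± 0.13, adjusted p = 0.177), with scores from -1.24 to 1.21 and from -2.09 to 1.04. The dendritic cell integrin Itgax was 0.42 ± 0.10 higher (adjusted p = 0.0103), while Ccr7 (0.30), Cd209a (0.20) and the other 4 tested members of that list did not pass. Neutrophils (0 of 6), fibroblasts and matrix (0 of 12) and endothelium (0 of 8) had medians of 0.12, 0.10 and 0.12. The part of immune cells in the result was not tested beyond these values.

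Tumour cell and tissue markers overlapped widely. None of 11 luminal, 8 basal, 10 milk, 6 adipocyte, 8 muscle and 8 skin genes passed. With 1.68% of all genes tested passing, most lists of this length would hold none, here and below. Differences above 0 made up 44.2% of all genes tested. The milk list was above 0 in all 10 genes with a median of 0.45, its largest difference being Csn1s2a at 1.01 ± 0.58 (adjusted p = 0.386). NF-kB targets and inflammatory cytokines, which the same sensors can activate, held 9 tested genes with a median of 0.09 and none passed, Il1b coming first at 0.30 ± 0.10 (adjusted p = 0.129). All 11 mitosis genes lay below 0, with a median of -0.24, and all 12 DNA replication genes likewise, with a median of -0.17, but none passed. The largest were Kif11, a spindle motor (-0.38 ± 0.13, adjusted p = 0.158), Bub1 (-0.32) and the helicase subunit Mcm5 (-0.24 ± 0.10, 0.203). The mitosis score ran from -2.90 to 1.197 in high and from -1.06 to 1.99 in low tumours, and with it as a covariate 130 genes were higher. Hypoxia and glycolysis (0 of 11, median -0.19), oxidative phosphorylation (0 of 12, -0.05), cholesterol synthesis (0 of 8, -0.08), fatty acid synthesis (0 of 8, 0.05), the unfolded protein response (0 of 10, 0.02), immediate early genes (0 of 9, 0.12) and metastasis modifiers (0 of 7, 0.01) held no gene that passed.

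The largest difference of all lay in a group of neighbouring genes on chromosome 11 that the interferon lists do not hold. BC018473 and St6galnac1 were not found unlooked for. They belong to a list of 11 genes, named strain-split here, that was chosen with earlier results of these data known. The other 9 of that list did not pass, and its median difference was -0.02. BC018473, whose function is not described here, differed by 6.38 ± 0.99 log2 (adjusted p = 3.25e-05). Its values fell into separate levels: 30 of the 56 arrays lay between 10.47 and 12.95 and the other 26 between 3.10 and 4.35, with none between. The upper level was found in 15 of 18 high, 13 of 20 middle and 2 of 18 low tumours, and within array set 1 in 8 of 10 high and 1 of 12 low tumours. St6galnac1, a sialyltransferase, ran from 5.12 to 11.26 (median 9.80) in high and from 4.71 to 9.64 (6.07) in low tumours, a difference of 3.19 ± 0.46 (adjusted p = 8.33e-06). Its neighbour St6galnac2, of the same enzyme family, differed by 1.497 ± 0.24 (7.72 to 10.31 against 6.11 to 8.74), but its other probe set went the opposite way, by -0.76. The genotypes of the animals at this locus were not analysed here. Arrays 3351 and 3351R share an animal number but lay at opposite levels (3.85 and 10.098), whereas 3296 and 3296R were both at the upper level (11.70 and 10.33), and what a shared number means was not tested. Of 185 genes tested within 10 Mb of BC018473, 5 were higher and none lower. Beside these 3 they were Lgals3bp and, named after its value was seen, Rnf213 (0.82). Chromosome 11 as a whole held 25 higher genes of 1076 tested (2.32%), among them Igtp, Irgm1 and Irgm2, and chromosome 17, where the MHC lies, 16 of 621 (2.58%), against 1.24% of all genes tested.

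The score overlapped between the BC018473 levels. It ran from 6.90 to 9.57 (median 8.17) in the 26 lower-level and from 7.65 to 10.39 (9.17) in the 30 upper-level arrays. In the 12 arrays above the 18S limit the score was 6.5004 to 7.21 in the 4 lower-level and 6.86 to 9.03 in the 8 upper-level arrays. With the level as a covariate, an alternative added after these values were seen, 101 genes were higher, 95 of them among the 155 of the main result that could be tested, and 2 were lower. Of the 71 higher genes of the interferon lists 59 still passed, all 9 GTPases and 27 of 30 antiviral effectors among them. Irf7 then differed by 1.64 ± 0.23 (adjusted p = 1.72e-05) and Ifit1 by 1.59 ± 0.19 (1.43e-06). Lgals3bp differed by 1.64 ± 0.22, whereas St6galnac1 differed by 0.57 ± 0.29 (0.533) and St6galnac2 by 0.78 ± 0.31 (0.421), neither of which passed. The level was upper in 15 of 18 high and 2 of 18 low tumours, so this covariate and the groups cannot be fully told apart. Among the 12 that no longer passed, errors were wider, and some differences stayed near their size while others shrank. Cxcl9 differed by 0.81 ± 0.29 (adjusted p = 0.339), Nlrc5 by 1.02 ± 0.27 (0.0703), Tlr3 by 0.38 ± 0.10 (0.0507), Ccl12 by 0.51 ± 0.15 (0.128), H2-M3 by 0.44 ± 0.14 (0.223) and Irf1 by 0.26 ± 0.07 (0.141). Ccl5 stood at 0.65, Ifi209 at 0.83, Slfn5 at 0.49, Sp100 at 0.43, Samhd1 at 0.23 and Isg20 at 0.16, each smaller than without the covariate. Ifi202b gained a call, at 2.21 ± 0.48 (adjusted p = 0.0105), as did Il1b at 0.55 ± 0.14 (0.0371).

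The 55 lower genes were small changes on 18 chromosomes. None reached 1.5-fold, 54 belonged to no list, and each group of values overlapped. Chromosome X held the most of them, 6 of 378 tested with 0 higher, against 0.438% lower over all genes tested. The 12 with the largest differences were Bdh1, Syt9, Rasl11b, Pgap1, Psmc3ip, Tspan2, Alg10b, Zfp185, Zfp704, Mtcl1, Susd4 and Rps6ka5. Alg10b, which adds the last glucose to the sugar chain used in protein glycosylation, had the lowest adjusted p among them. It ran from 8.13 to 8.77 (median 8.39) in high and from 8.53 to 9.32 (8.77) in low tumours, a difference of -0.38 ± 0.06 (adjusted p = 1.08e-04). Pgap1, which remodels lipid anchors of surface proteins, lay between 5.68 and 6.46 against 5.99 and 7.15, a difference of -0.49 ± 0.09 (adjusted p = 3.40e-04). Bdh1, a mitochondrial enzyme of ketone body metabolism, differed by -0.55 ± 0.15 (adjusted p = 0.0379) and ran from 6.57 to 7.96 against 7.16 to 8.79. The count of lower genes rests on few arrays. It was 17 without array 3289 or 5000, 23 without 2424, 24 without 3299R, 31 without 3290 or 3853, 33 without 4971, 34 without 3295 and 36 without 4967, and it rose to 83 without 3824 and to 91 without 3351 or 3868. The count of higher genes stayed between 142 and 179 when any single array was left out. Lower genes also fell to 1 in array set 1 alone, where 125 genes were higher, and to 5 with the T and NK cell score, 9 with the mitosis score and 7 with the 3' minus 5' differences as covariates.

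Arrays that took no part in choosing the groups were used to look at the same genes again. Of the 12 arrays above the 18S limit, 10 carried an animal number not found among the 56, and the score was computed in them in the same way. A slope on their score called 49 genes (0.39% of those tested) higher, by limma at the same threshold, and none lower, with 627 genes at an unadjusted p below 0.05. All 49 were among the 156. Of the 156 higher genes 151 had a slope above 0, as had 6251 of all 12559 genes tested, while 40 of the 55 lower genes had a slope below 0. Per SD of the score (0.907 log2), Irf7 differed by 0.87 ± 0.06 (adjusted p = 9.84e-05), Ifit1 by 0.86 ± 0.07 (3.83e-04), Irgm2 by 0.73 ± 0.06 (3.83e-04), Ddx60 by 0.90 ± 0.12 (0.00351) and B2m by 0.45 ± 0.08 (0.0393). BC018473 (2.84 ± 0.51, adjusted p = 0.0372) and St6galnac1 (1.54 ± 0.26, 0.0221) passed there too. By list, 24 of 31 antiviral effectors, 6 of 9 GTPases, 2 of 16 MHC class I genes and 0 of 11 chemokines and ligands passed. As the score uses the same 3 interferon genes, these counts again describe how closely other genes followed it. These 10 arrays belong to array set 2 and share the raised 18S signal, and their number limits the precision. Their T and NK cell list scores ran from 1.26 to 2.03 and their mitosis scores from -4.70 to -2.32.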

How the data were processed

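Per the labels' protocols, tumour RNA was isolated with Trizol followed by RNeasy purification, biotin-labelled and measured on Affymetrix arrays. The authors deposited 1 RMA value for each probe set and array, as the submitters' processing notes state. The log base, and whether the arrays were scaled jointly, are not given in the sources used here. The deposited values, from 1.68 to 14.57, were read as log2. A probe set was used where the platform annotation pairs it with 1 gene (34958 of 45101, 34754 of them found in the GRCm38.p6 gene table). That table served for names, chromosomes and neighbours only.

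Each gene was read from its probe set with the highest mean over the 56 arrays, and entered the tests if its 95th percentile exceeded 5.42, the median over the whole table. This left 12559 genes after the score genes were set aside. The labels form 1 group. High and low groups follow the score, so a test describes association with it and not the effect of a treatment. A p-value sets a difference against the spread between animals within the groups. For genes that follow the score it also reflects how the groups were chosen. Array sets are splits of the arrays shared exactly by 20 or more probe sets from 10 or more chromosomes, with Ashman's D over 4.5. Genes were fitted with limma 3.58.1 (lmFit and eBayes, R 4.3.3) with array set as a term, and Benjamini-Hochberg adjustment ran over all genes tested. Errors of differences are the standard errors of this fit. On simulated data with the real arrays' spread, 100 genes were moved by 0.5 and 100 by 1 log2. The same fit recovered 93% and 98% of them, with 11 false calls among the genes that were not moved. Whether these figures hold where genes vary together across arrays was not tested. List scores are means of z-scores over the 56 arrays. No pair of arrays held identical values. The number of arrays limits the precision.

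The members, the 36 gene lists and the tests were chosen with earlier results of these data known. Named genes are the score genes, every measured member of the 9 interferon lists, up to 4 members of each other list by size of difference, and the 12 genes in no list with the largest difference each way. Krt8, Krt18 and Epcam are named as defining markers of the tissue and Cd3e, Csf1r and Cdk1 plotted as common markers of their lists, and other genes named are said to be picked after seeing their values. Alternatives changed the array set term, the number of arrays per group, the score genes, the arrays kept, the filter, the probe set, the variance model and the covariates.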

Additional observations from a re-analysis of the deposited data

How the results depend on the processing

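Genes higher in high tumours numbered 116 to 169 in the alternatives that left the count of 156 within 1.5 times, among them array set 1 alone, no filter and no array set term. They numbered 318 by a slope over all 56 arrays, 261 with 12 arrays a side, 49 by a slope over the arrays with high 18S and 101 with the BC018473 level as a covariate. Genes lower, 55 in the result above, varied more. They numbered 486 by the slope over 56 arrays, 257 with 12 and 23 with 28 arrays a side, 1 in array set 1, 14 without arrays marked R, 4 among animal numbers below 4000 and 0 over the arrays with high 18S (limma, 627 genes at unadjusted p below 0.05 in either direction). With covariates they numbered 5 (T and NK cell score), 9 (mitosis score), 6 (both scores, chosen after seeing the data), 7 (3' minus 5' differences) and 2 (BC018473 level, chosen after seeing the data). Leaving out 1 array at a time gave 142 to 179 higher and 17 to 91 lower genes. The causes were not tested.

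Direction turned in 4 cases among the named genes that had passed. Rnaseh2b (0.0018), Bdh1 (0.0170) and Tspan2 (0.0747) had a slope above 0 over the arrays with high 18S, and Zfp704 differed by 0.0779 with the probe set of largest SD. Among the higher interferon genes, Ifi27l2a, Slfn5, Sp100, H2-M3, Psme1, Cxcl9 and Ccl5 lost their call in array set 1 alone (adjusted p of 0.0740 to 0.469), and Isg20, H2-M3, Cxcl9 and Ccl5 with 28 arrays a side (0.0657 to 0.126), all still above 0. Calls were also gained, by 19 named genes with the slope over 56 arrays and by 10 with 12 arrays a side. By that slope the interferon lists held 77 higher and 2 lower genes, against 71 and 1 in the main comparison. Where a gene is said above not to have passed, this holds for the comparison of 18 with 18 arrays. Of 77 other probe sets of 48 named genes that passed, 71 had the same sign, the others belonging to H2-D1, St6galnac2, Tap1 and Zfp704. The planned score from Isg15, Rsad2 and Irf7 was not run because no probe set is paired with Isg15 alone, and a score from Rsad2, Irf7 and Ifit1 took its place (169 higher, 58 lower). Genes below the filter, the interferons among them, are limited by signal over background.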
